A study of Mus musculus with 6 samples.

Results

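The genes described here are 10 members of the fibroblast growth factor (FGF) receptor and ERK feedback circuit, 3 receptors (Fgfr1, Fgfr2, Fgfr3), 4 inhibitors (Dusp6, Spry1, Spry2, Spry4) and 3 ETS transcription factors (Etv1, Etv4, Etv5). They were followed on 6 arrays of sorted cells from C57BL/6 mice, with 2 arrays per stage (E18, P3, P6). The labels name these cells corticothalamic projection neurons, which send axons from the cortex to the thalamus. However, the 13 proliferation markers averaged 11.81 and 11.86 at E18, against 6.70 and 6.59 at P3. The 12 radial glia and progenitor markers averaged 10.70 on both E18 arrays, against 6.59 and 6.95 at P3. The share of other cells on each array was not tested. Probe sets were taken where the platform annotation gave exactly 1 gene symbol, which found 9 of the 10 genes with 21 probe sets, out of 18193 genes on the array. Etv1 has 3 probe sets that all carry a second symbol, so no value is given for it. Spry4 was below the filter on dim genes, which left 8 genes among the 13645 tested. The genes were chosen by their role with the levels on these arrays already known, and Dusp6 was selected on its own rise and fall over the 3 stages, so its values are described without a test.

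For the E18 group, green fluorescent microspheres were placed in the thalamus at E17.5, and neurons that had carried them back along their axons were sorted from cortex collected at E18.5. The P3 neurons were injected at P1 and the P6 neurons at P4. The E18 cells thus carried the label for 1 day and the P3 and P6 cells for 2 days, and in comparisons with E18 this time and the stage cannot be told apart. A sort on microspheres keeps any cell that carries them, and no genetic marker selected the neurons. Separate litters or sorts for the 2 arrays of each stage are not stated, so p-values reflect array-to-array spread alone, which may be technical.

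FGF receptors are receptor tyrosine kinases. When a ligand binds with heparan sulfate, they pass a signal through adaptor proteins and Ras to the kinase ERK. ERK activity turns on its own inhibitors, among them the ERK phosphatase gene Dusp6 and the Sprouty genes, and the ETS factor genes of the Etv1, Etv4 and Etv5 group, so these genes are widely used as readouts of FGF signalling. In the embryonic cortex the receptors are known from progenitors of the ventricular zone, and Fgfr3 is later a marker of astrocytes.

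Promoters are shown for Dusp6, whose level was higher at P3 than at E18, and for Fgfr3, Fgfr2 and Etv5, which were lower at P3 than at E18. Each line gives the 250 bases before the outermost annotated start, 5′ to 3′ on the gene's strand, from RefSeq (GRCm38.p6). Capitals mark letters that bind ETS factors in many genes, CGGAA or AGGAAG, read on both strands.
Dusp6, chr10:99262981-99263230, plus strand: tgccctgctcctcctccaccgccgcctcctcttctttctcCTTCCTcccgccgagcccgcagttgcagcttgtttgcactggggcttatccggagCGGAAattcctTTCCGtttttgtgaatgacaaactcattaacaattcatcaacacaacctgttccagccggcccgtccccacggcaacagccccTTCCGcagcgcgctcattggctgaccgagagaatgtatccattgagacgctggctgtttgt
Fgfr3, chr5:33721474-33721723, plus strand: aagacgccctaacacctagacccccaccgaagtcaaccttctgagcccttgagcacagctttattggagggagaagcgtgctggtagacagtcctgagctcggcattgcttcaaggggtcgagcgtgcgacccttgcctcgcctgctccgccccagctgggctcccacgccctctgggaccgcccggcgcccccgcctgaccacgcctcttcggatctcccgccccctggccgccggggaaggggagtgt
Fgfr2, chr7:130266809-130267058, minus strand: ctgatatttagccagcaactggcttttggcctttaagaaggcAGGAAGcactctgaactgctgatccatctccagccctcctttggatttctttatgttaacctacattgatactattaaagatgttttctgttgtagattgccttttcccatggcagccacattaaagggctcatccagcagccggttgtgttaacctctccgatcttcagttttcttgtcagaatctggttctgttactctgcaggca
Etv5, chr16:22439571-22439820, minus strand: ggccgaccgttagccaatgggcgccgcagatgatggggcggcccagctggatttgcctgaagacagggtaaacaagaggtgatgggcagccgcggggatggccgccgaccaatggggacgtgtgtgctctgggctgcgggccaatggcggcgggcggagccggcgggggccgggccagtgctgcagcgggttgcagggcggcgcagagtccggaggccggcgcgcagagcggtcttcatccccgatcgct
The Dusp6 window held CGGAA at 3 places, 155, 144 and 61 bases before the start, and AGGAAG at 1 place, 210 bases before it. The Fgfr2 window held AGGAAG once, 208 bases before the start, and the Fgfr3 and Etv5 windows held neither. The marked stretches did not overlap. CGGAA occurred in 25.2% and AGGAAG in 29.5% of 32851 promoter windows of this length. Windows were found for 7 of the 10 genes, and Dusp6 was the 1 gene of these 7 with CGGAA. These matches describe letters in a window, and binding was not measured.

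Values below are log2 expression levels per probe set, as deposited, and each gene is represented by its brightest probe set unless others are named. A difference is in log2 units, later stage minus earlier. A gene was called at a limma adjusted p below 0.05 (Benjamini-Hochberg over 13645 genes), and ± after a difference is its standard error (SE), which is in log2 units also where it stands beside a fold. Levels of different genes are not compared, because probes differ in brightness.

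The arrays of a stage were unequally alike. The SD of log2 differences between the 2 arrays was 0.127 at E18, against 0.573 at P3 and 0.457 at P6, and the fit pools these spreads. Because calls may depend on the narrow E18 spread, some results are also given below with the E18 arrays averaged. Hybridization controls stood at 9.59 and 9.25 at E18, 11.72 and 11.59 at P3, then 13.01 and 9.85 at P6. Probe sets of 18S ribosomal RNA averaged 11.32 and 11.37 at E18, 11.83 and 14.22 at P3, then 13.92 and 11.33 at P6. Actb probe sets at the 3′ end exceeded those at the 5′ end by 0.56 and 0.58 at E18, 1.19 and 1.76 at P3, then 1.06 and 0.82 at P6. For Gapdh these values were 1.48 and 1.44 at E18, 2.55 and 1.68 at P3, then 2.08 and 1.79 at P6. The 14 corticothalamic and layer 6 markers averaged 8.85 and 8.92 at E18, 10.44 and 9.88 at P3, then 10.64 and 10.54 at P6. At P3 against E18, limma called 10 of the 14 higher and 1 lower, against 15.5% and 25.7% of all genes. The part of these markers in the results below was not tested. The layer 6 factor gene Tle4 stood at 9.76 and 9.85 at E18, 12.16 and 11.68 at P3, then 12.41 and 12.16 at P6. Syt6, at 6.12 and 6.13, lay below the array medians at E18. Ccn2, a marker of the deepest layer 6 cells, was the 1 called lower, with 7.07 and 5.99 at P3, against 10.12 and 10.15 at E18. Fezf2 was not called (adjusted p = 0.317). Markers of progenitors were also high at E18, as given beside the receptors.

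**Figure D1:**
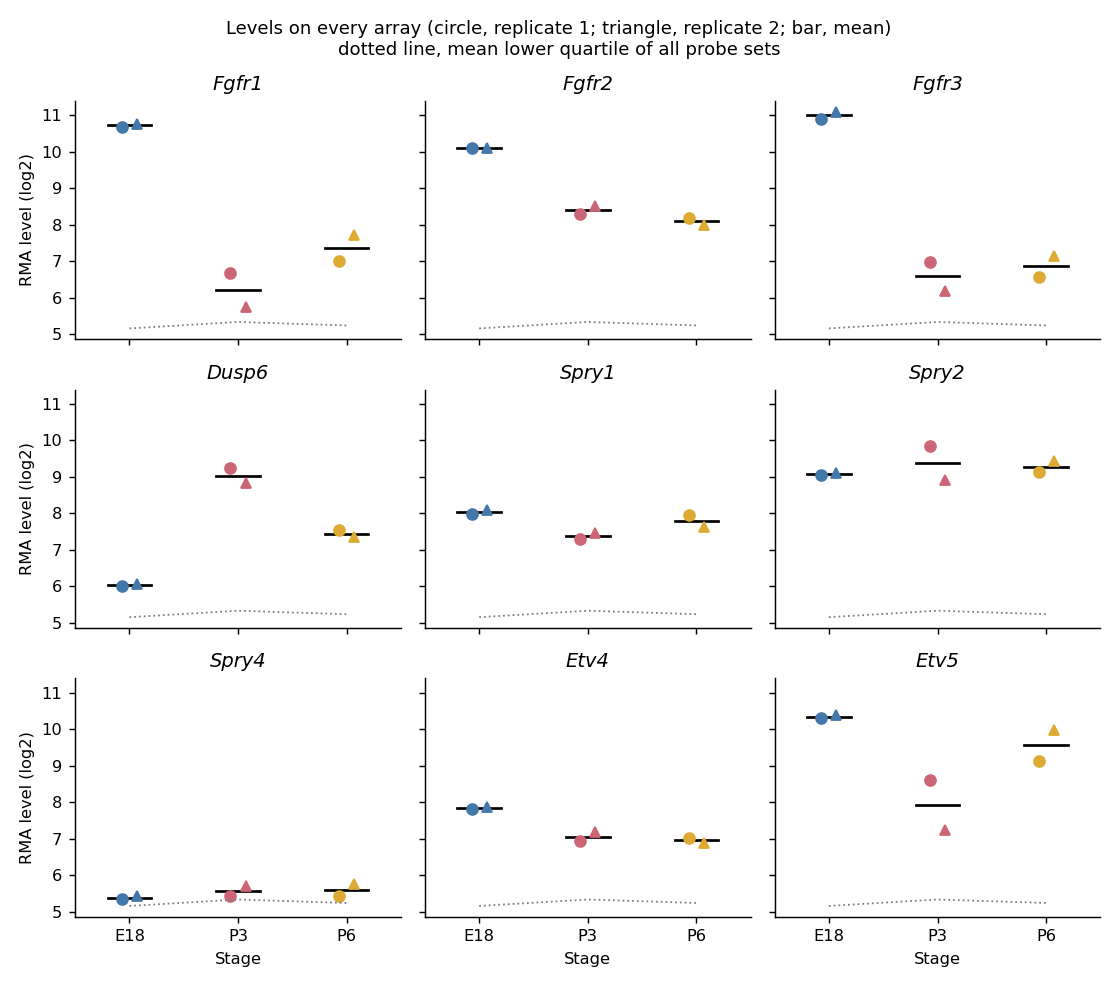
Log2 level of 9 genes on every array (y axis) by stage (x axis). Circles are replicate 1, triangles replicate 2, bars the mean of the 2 arrays, and the dotted line is the mean lower quartile of all probe sets. Fgfr1, Fgfr2 and Fgfr3 stood highest at E18, Dusp6 was lowest at E18 and highest at P3, and the brightest Spry4 probe set lay close to the dotted line.

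All 3 receptor genes fell between E18 and P3 and remained low at P6. At P3, Fgfr1 was 22.8-fold, Fgfr3 21.4-fold and Fgfr2 3.27-fold lower than at E18. At P6 they were 10.3-fold, 17.6-fold and 4.01-fold lower than at E18. At P6 these 3 falls were larger than those of the other tested genes of the circuit, and at P3 Etv5 fell further than Fgfr2. The size depended on the probe set. With the mean of all probe sets of a gene, Fgfr1 differed by -2.997 at P3 and by -2.40 at P6 from E18, and Fgfr3 by -2.60 and -2.49, all still called. Fgfr2 then differed by -0.61 at P3, which was not called, and by -0.94 at P6, which was.

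Fgfr1 had 10.69 and 10.77 at E18, 6.69 and 5.75 at P3, then 7.003 and 7.72 at P6. Both E18 arrays stood above all later arrays, and both P6 arrays stood above both P3 arrays. P3 minus E18 was -4.51 ± 0.37 (limma adjusted p = 0.000145), and P6 minus E18 was -3.36 ± 0.37 (adjusted p = 0.000519). Its other 2 probe sets also fell between E18 and P3. The probe set 1425911_a_at averaged 4.89 at P3, against 8.50 at E18, and 1436551_at averaged 5.84 at P3, against 6.71 at E18. The first differed by -3.61 ± 0.21 (adjusted p = 8.62e-05 over 34945 probe sets) and the second by -0.87 ± 0.16 (adjusted p = 0.00914).

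Fgfr3 had 10.91 and 11.10 at E18, 6.99 and 6.18 at P3, then 6.58 and 7.15 at P6. The E18 arrays stood apart, and the P3 and P6 arrays overlapped. The change from E18 to P3 was -4.42 ± 0.33 (limma adjusted p = 9.99e-05), and P6 minus E18 was -4.14 ± 0.33 (adjusted p = 0.000132). Its second probe set, 1425796_a_at, stood at 7.04 and 6.99 at E18, 6.41 and 6.05 at P3, then 6.15 and 6.20 at P6. It was called lower at P3, by -0.79 ± 0.19 (adjusted p = 0.0269), and at P6, by -0.84 ± 0.19 (adjusted p = 0.0238).

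Fgfr2 had 10.10 and 10.10 at E18, 8.28 and 8.51 at P3, then 8.19 and 8.00 at P6. Both P6 arrays lay just below both P3 arrays, and all 4 lay below E18. From E18 to P3 the difference was -1.71 ± 0.23 (limma adjusted p = 0.00149), and P6 minus E18 was -2.005 ± 0.23 (adjusted p = 0.000664). The 3 probe sets of Fgfr2 disagreed. The probe set 1420847_a_at differed by -0.34 ± 0.34 between E18 and P3 (adjusted p = 0.453) and 1443211_at by 0.21 ± 0.23 (adjusted p = 0.486), neither called. With the mean of all 3 the difference was -0.61 at P3, not called (adjusted p = 0.0636), and -0.94 at P6, called (adjusted p = 0.0182).

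The means of marker lists of other cells were also lower at P3 than at E18, though single markers differed. Over all genes, limma called 25.7% lower and 15.5% higher at P3, and 16.9% lower and 14.8% higher at P6, against E18. The mean log2 level of 12 radial glia and progenitor markers was 10.70 on both E18 arrays, 6.59 and 6.95 at P3, then 6.75 and 6.94 at P6. Of these, 10 were called lower at P3 and 0 higher, while Pax6 and Nes were not called. Sox2, a transcription factor of progenitors, stood at 5.26 and 5.43 at P3, against 12.12 and 12.07 at E18. The 13 proliferation markers averaged 11.81 and 11.86 at E18, 6.70 and 6.59 at P3, then 6.79 and 6.94 at P6. The 12 astrocyte markers averaged 9.05 and 9.06 at E18, 6.37 and 6.56 at P3, then 6.94 and 7.62 at P6. Limma called 7 of the 11 tested lower at P3 and 1, S100b, higher, while Gfap, Aqp4 and Slc1a2 were not called. Sox9 is in both the astrocyte and the progenitor list. The 11 microglia markers averaged 8.76 and 8.77 at E18, 6.44 and 7.21 at P3, then 6.98 and 8.44 at P6. Of 9 tested, 6 were called lower than at E18 at P3 and 0 at P6. Of the oligodendrocyte lineage markers, 3 of 7 tested were called lower at P3 and 0 higher. Olig2 stood at 4.56 and 5.58 at P3, against 8.19 and 8.24 at E18 (limma adjusted p = 0.000579). Olig1 stood at 6.43 and 7.62 at P3, against 8.97 and 9.004 at E18 (adjusted p = 0.00656). In the other direction, Sox10 stood at 7.40 and 8.29 at P3, against 7.14 and 6.93 at E18. Sox10, Mbp and Mag differed by 0.81, 0.76 and 0.37 at P3 and were not called (adjusted p of 0.071, 0.106 and 0.171). Pdgfra, not tested, was below the array median on all 6 arrays. The part of these cells in the receptor values was not tested. In RNA of a sorted population, fewer cells of a type and less RNA per cell cannot be told apart.

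**Figure D2:**
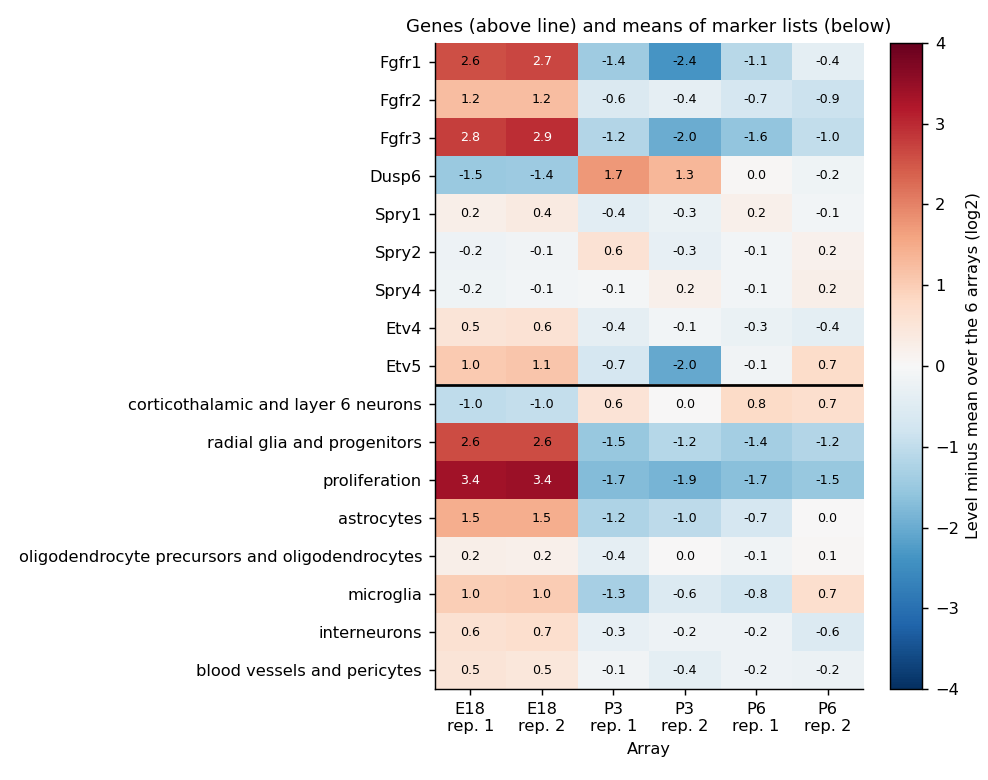
Level minus its mean over the 6 arrays (colour and printed value, log2 units) for 9 genes above the line and for the means of 8 marker lists below it, by array (x axis). Fgfr1 and Fgfr3 were highest on the E18 arrays, as were the means of the progenitor and proliferation lists, while Dusp6 was lowest there.

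Dusp6, which encodes a cytoplasmic phosphatase that switches ERK off, was higher after E18, where the receptors were lower. It had 6.01 and 6.06 at E18, 9.23 and 8.83 at P3, then 7.55 and 7.35 at P6. The 3 stages did not overlap, and both P3 arrays stood above all others. P3 minus E18 was 2.99, a 7.96-fold higher level at P3. P6 minus P3 was -1.58, and P6 minus E18 was 1.41, a 2.66-fold higher level at P6 than at E18. The course was the reason for choosing the gene and was not tested. Both P3 arrays stood above all E18 and P6 arrays for 9.01% of the genes tested. Without either P3 array the difference P3 minus E18 lay between 2.79 and 3.20. Of the 18 alternatives run, 2 were flagged as moving P3 minus E18 and 3 as moving P6 minus P3. Dusp6 has 1 probe set on the array, so no second probe set bears on it. At E18 its level was below the medians of those arrays, 6.41 on each.

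The Sprouty genes, which encode inhibitors of signalling from receptor to Ras, moved less. Spry1 had 7.98 and 8.09 at E18, 7.31 and 7.46 at P3, then 7.95 and 7.62 at P6. The P3 arrays lay below all others. The change from E18 to P3 was -0.65 ± 0.21 (limma adjusted p = 0.0461), a 1.57-fold lower level at P3. That call was lost under 11 of the 18 alternatives run, among them the E18 arrays averaged (adjusted p = 0.273). P6 minus E18 was -0.25 ± 0.21 and was not called (adjusted p = 0.396).

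Spry2 had 9.05 and 9.12 at E18, 9.83 and 8.91 at P3, then 9.13 and 9.43 at P6. The 2 P3 arrays lay on either side of the E18 arrays. From E18 to P3 the difference was 0.29 ± 0.34 (limma adjusted p = 0.502), and P6 minus E18 was 0.20 ± 0.34 (adjusted p = 0.679). Quantile normalization gave 0.75 for P3 minus E18, which was then called (adjusted p = 0.0362). Without P3 replicate 1 it was -0.17, and without P3 replicate 2 it was 0.75 and called (adjusted p = 0.0408).

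Spry4 was dim. Its brightest probe set stood at 5.35 and 5.42 at E18, 5.44 and 5.70 at P3, then 5.42 and 5.75 at P6. Its mean of 5.51 was under the 5.97 needed for the test. The lower quartiles of the arrays ran from 5.15 to 5.40. None of its 4 probe sets was called by limma in the fit of all probe sets, and the smallest adjusted p was 0.059, for 1422020_at in P3 minus E18.

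The ETS factor genes were lower at P3 than at E18 where they could be measured. Etv5 fell 5.41-fold and Etv4 1.72-fold. At P6 Etv4 was 1.84-fold lower than at E18, and Etv5 was not called.

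Etv5 had 10.31 and 10.38 at E18, 8.59 and 7.23 at P3, then 9.12 and 9.99 at P6. The P3 arrays lay below all others, a course that 18.0% of the tested genes shared, and the P6 arrays lay between the 2 other stages. P3 minus E18 was -2.43 ± 0.48 (limma adjusted p = 0.00728). P6 minus E18 was -0.79 ± 0.48 and was not called (adjusted p = 0.247). When the hybridization controls were added as a covariate, the first difference was -1.86 and was not called (adjusted p = 0.139). A second probe set, 1450082_s_at, followed the same course, with 7.42 and 7.27 at E18, 6.19 and 5.77 at P3, then 6.85 and 6.78 at P6. It was called lower at P3 by -1.36 ± 0.21 (adjusted p = 0.00493). The third, 1420998_at, was dimmer and differed by -0.11 ± 0.20 (adjusted p = 0.687). With the mean of all 3, Etv5 differed by -1.30 at P3 (adjusted p = 0.00298).

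Etv4 had 7.81 and 7.86 at E18, 6.93 and 7.18 at P3, then 7.02 and 6.89 at P6. Both E18 arrays stood above all later arrays, while P3 and P6 overlapped. The change from E18 to P3 was -0.78 ± 0.19 (limma adjusted p = 0.0175), and P6 minus E18 was -0.88 ± 0.19 (adjusted p = 0.0115). With the E18 arrays averaged neither was called (adjusted p of 0.153 and 0.124). Its dim second probe set, 1443381_at, differed by 0.19 ± 0.15 between E18 and P3 and was not called (adjusted p = 0.335). With the mean of both probe sets P3 minus E18 was -0.29 (adjusted p = 0.118).

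**Figure D3:**
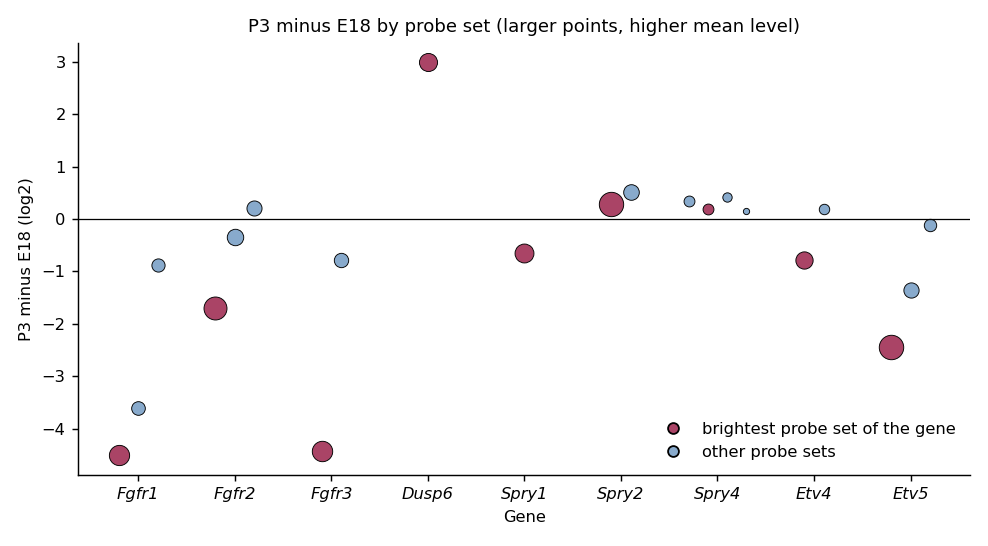
P3 minus E18 (y axis, log2 units) for each of the 21 probe sets of 9 genes (x axis), with larger points for higher mean levels. Red points are the brightest probe set of a gene and blue points the others. The 3 Fgfr1 and 2 Fgfr3 probe sets all lay below 0, while those of Fgfr2 and Etv4 lay on both sides of it.

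Apart from Dusp6, 6 of the 7 tested genes were called lower at P3 than at E18 and 0 higher. Over all 13645 genes, limma called 25.7% lower and 15.5% higher. Under quantile normalization 50.4% of the calls over all genes were higher ones, against 37.6% as deposited, and 6 of the 7 genes were called, with Spry2 higher in place of Spry1 lower. With the hybridization controls as a covariate 3 of the 7 were called. The median difference of the 7 was -1.71, against -0.13 over all genes tested. At P6 against E18, 4 of the 7 were called lower and 0 higher, against 16.9% lower and 14.8% higher over all genes. The median of the 7 was then -0.88, against 0.08. By probe set, 9 of the 20 without Dusp6 were called lower at P3 and 0 higher, against 17.1% and 11.5% of all 34945. At P6 against E18, 7 were called lower and 0 higher, against 12.4% and 8.76%. With the E18 arrays averaged, 4 of the 20 were called at P3 and 4 at P6. The genes were chosen with earlier results of these data known, so these counts describe them and do not set them apart from other genes.

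**Figure D4:**
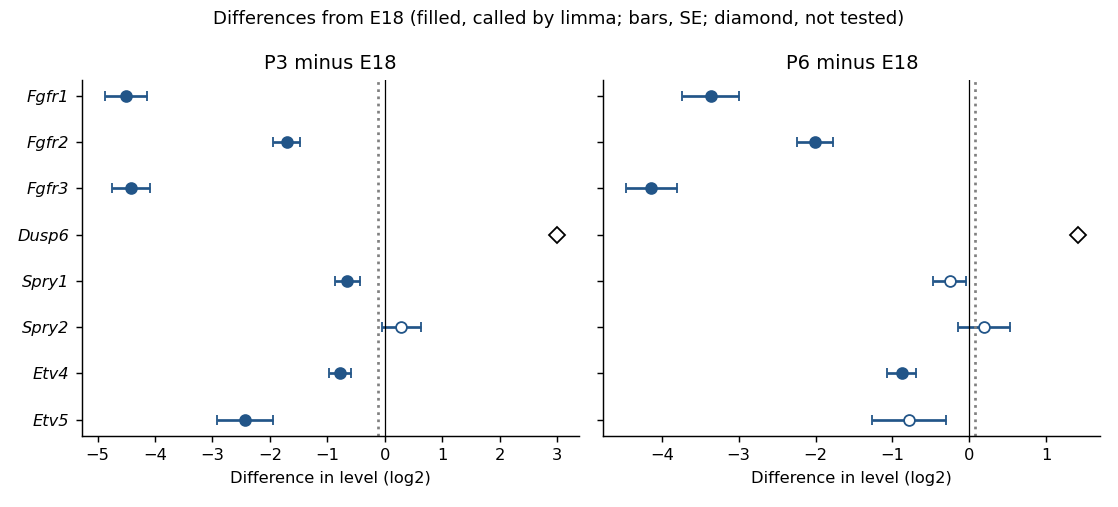
Difference from E18 (x axis, log2 units) at P3 (left) and P6 (right) for 8 genes. Filled circles were called by limma, open circles were not, bars are the SE, the diamond is Dusp6, which was not tested, and the dotted line is the median of all genes tested. Fgfr1 and Fgfr3 differed by about 4.4 to 4.5 log2 units at P3, and Dusp6 lay on the other side of 0 from the receptors.

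Counted by overlap of arrays and with Dusp6 included, 8 genes were compared. At P3 against E18, 1 stood higher on both arrays (Dusp6), 6 lower, and Spry2 overlapped. Over all genes 36.4% stood higher and 44.2% lower, 80.6% in all. At P6 against E18, 2 stood higher (Dusp6 and Spry2) and 6 lower, against 43.4% and 37.4% of all genes, 80.8% in all. At P6 against P3, 3 stood higher (Fgfr1, Spry1 and Etv5), 2 lower (Fgfr2 and Dusp6) and 3 overlapped, against 30.6% higher and 13.1% lower over all genes, 43.7% in all.

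Between P3 and P6 limma called 0 of the 7 genes and 0 of all 13645 genes (0%), with 2 of the 7 and 2696 of all genes at an unadjusted p under 0.05. Etv5 differed by 1.65 ± 0.48 (adjusted p = 0.154) and Fgfr1 by 1.14 ± 0.37 (adjusted p = 0.172). Spry1 differed by 0.40 ± 0.21, Fgfr3 by 0.28 ± 0.33, Fgfr2 by -0.30 ± 0.23, Etv4 by -0.10 ± 0.19 and Spry2 by -0.09 ± 0.34. Without P3 replicate 1, Etv5 differed by 2.33 (adjusted p = 0.0192) and Fgfr1 by 1.61 (adjusted p = 0.0298), and both were called. For both genes P6 replicate 2 was the higher P6 array. On that array the astrocyte markers averaged 7.62 and the microglia markers 8.44, against 6.94 and 6.98 on P6 replicate 1. Their part in the values was not tested.

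The change after P3 was set against the change before it in the same fit, with the P3 arrays entering both. A fall before P3 with little change after it is enough for a call here. The median of this difference over all genes tested was 0.35. Limma called 22.0% of all genes. Of the 7 genes, 4 were called, all with a more positive change after P3, against 16.7% of all genes called in that direction and 5.28% in the other. Fgfr1 differed by 5.65 ± 0.64 (adjusted p = 0.00204), Fgfr3 by 4.70 ± 0.58 (adjusted p = 0.00277), Etv5 by 4.08 ± 0.83 (adjusted p = 0.0164) and Fgfr2 by 1.41 ± 0.40 (adjusted p = 0.0458). Spry1, Spry2 and Etv4 were not called. The change after P3 alone was 0.28 for Fgfr3 and -0.30 for Fgfr2, and neither was called. The count of 4 was lower under 13 of 17 alternatives. It was 3 with the E18 arrays averaged, under quantile normalization and with a replicate block, and 2 without P6 replicate 2 or with the hybridization controls as a covariate.

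Other genes of the pathway were listed by role, 94 in all, of which 67 were tested. Limma called 34 of them (50.7%) between E18 and P3, 11 higher and 23 lower, against 41.3% of all genes (15.5% higher, 25.7% lower). Between E18 and P6 it called 29 (43.3%), 10 higher and 19 lower, against 31.7% (14.8% higher, 16.9% lower). The median differences over the 67 genes were -0.10 at P3 and 0.00 at P6, against -0.13 and 0.08 over all genes. With the E18 arrays averaged the counts were 18 at P3 and 19 at P6.

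Secreted FGF ligands were dim. Of 18 listed, 6 were tested, and 3 were called higher at P3 and 0 lower, with a median of 0.56. Fgf9 had 6.26 and 6.36 at P3, against 5.71 and 5.73 at E18, a difference of 0.59 ± 0.14 (limma adjusted p = 0.0162). Fgf22, known for organizing presynaptic terminals, differed by 0.58 ± 0.17 (adjusted p = 0.0289) and Fgf1 by 0.78 ± 0.23 (adjusted p = 0.0328). With the E18 arrays averaged 0 of the 6 ligands were called, and at P6 0 were called.

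The intracellular FGF homologous factors bind sodium channels and are not classical ligands of the receptors. Of 4 tested, 2 were called higher at P3 and at P6 and 0 lower. Fgf12 had 9.74 and 9.63 at P3, against 7.74 and 7.84 at E18, a 3.71-fold higher level (SE 0.23, adjusted p = 0.000848). Fgf14 had 7.50 and 6.79 at P3, against 5.04 and 5.12 at E18 (adjusted p = 0.0018), and no fold is given because both E18 values lay below the lower quartiles of those arrays. Fgf13 stood at 11.05 and 11.12 at P3, against 11.37 and 11.46 at E18, and was not called (adjusted p = 0.222).

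Among other receptors and co-receptors, 2 of 7 were called higher and 3 lower at P3. The secreted FGF-binding protein gene Fgfbp3 had 7.08 and 6.60 at P3, against 10.33 and 10.39 at E18, an 11.5-fold lower level (SE 0.24, limma adjusted p = 6.32e-05). Fgfrl1, a receptor that lacks the kinase, was 3.40-fold lower (SE 0.21, adjusted p = 0.000789). Flrt3, a membrane protein that binds FGF receptors, was 3.35-fold lower (SE 0.21, adjusted p = 0.000842), a call lost with the probe set of largest SD (-1.14, adjusted p = 0.128). Averaging the E18 arrays left 0 called higher and 3 lower.

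Of 18 adaptor and Ras to ERK relay genes tested, 3 were called lower and 0 higher at P3, against 25.7% and 15.5% of all genes. The other 15 were not called. Quantile normalization changed the counts of the 18 to 5 higher and 2 lower. Gab1, an adaptor that binds Grb2, had 7.66 and 8.51 at P3, against 9.83 and 10.34 at E18, a 3.998-fold lower level (SE 0.35, limma adjusted p = 0.00469). The kinase gene Map2k2, which encodes an activator of ERK, was 2.56-fold lower (SE 0.35, adjusted p = 0.0202). The Ras exchange factor gene Sos2 was 2.35-fold lower (SE 0.39, adjusted p = 0.0396). With the E18 arrays averaged 1 of the 18 was called at P3, while Map2k2 and Sos2 were not (adjusted p of 0.0978 and 0.122).

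Other negative regulators had 2 genes higher and 8 lower among 16 at P3, with a median of -0.83. The ERK phosphatase gene Dusp4 had 6.81 and 5.66 at P3, against 9.30 and 9.58 at E18, a 9.21-fold lower level (SE 0.37, limma adjusted p = 0.000712). Lrig1, which encodes a membrane inhibitor of receptor tyrosine kinases, was 7.65-fold lower (SE 0.33, adjusted p = 0.000628). Rasal2, which encodes a Ras GTPase-activating protein, was 5.33-fold lower (SE 0.37, adjusted p = 0.00253). The ERK phosphatase gene Dusp7 was higher, with 6.98 and 6.87 at E18, 8.42 and 7.95 at P3, then 9.07 and 9.58 at P6. It was 5.28-fold higher at P6 than at E18 (SE 0.27, adjusted p = 0.000617), and P6 minus P3 was 1.14 ± 0.27 (adjusted p = 0.126). Averaging the E18 arrays left 0 of the 16 called higher at P3 and 5 lower. The E3 ligase gene Cblb differed by -0.94 ± 0.29 between P3 and P6 (adjusted p = 0.163). Dusp5, an ERK phosphatase gene named after its values were seen, had 7.72 and 7.83 at P3, against 6.90 and 6.96 at E18. No p-value is given for it because of that choice.

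Other ETS factors and ERK-responsive genes had 2 genes higher and 9 lower among 16 at P3, with a median of -1.16. The immediate early gene Fos had 7.59 and 8.10 at P3, against 11.30 and 11.34 at E18, an 11.1-fold lower level (SE 0.32, limma adjusted p = 0.000245). The ETS factor gene Elk3 had 5.92 and 5.19 at P3, against 8.81 and 9.01 at E18 (adjusted p = 0.000135), and no fold is given because P3 replicate 2 lay below the lower quartile of its array. Ccnd1, which encodes a cyclin of the G1 phase, was 3.33-fold lower (SE 0.22, adjusted p = 0.00106). After the E18 arrays were averaged, 0 of the 16 were called higher and 7 lower. Phlda1 stood at 8.13 and 8.30 at E18, 5.89 and 5.32 at P3, then 6.51 and 7.48 at P6, and P6 minus P3 was 1.39 ± 0.34 (adjusted p = 0.127).

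**Figure D5:**
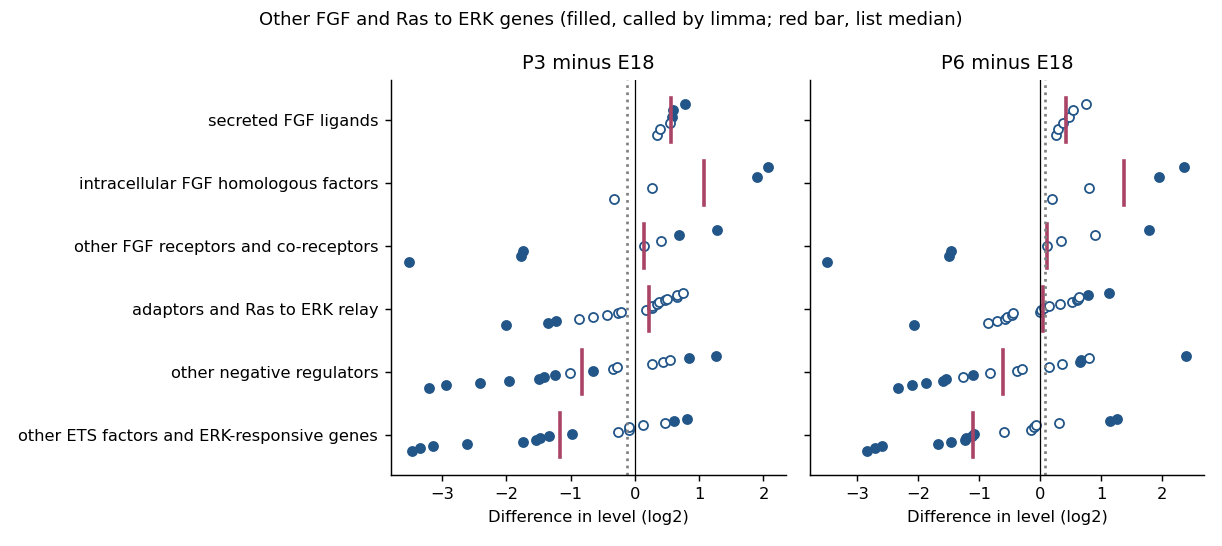
Difference from E18 (x axis, log2 units) at P3 (left) and P6 (right) for 67 other pathway genes in 6 lists by role. Filled points were called by limma, open points were not, the red bar is the list median and the dotted line the median of all genes tested. The 2 lists of regulators and responsive genes at the bottom had medians below 0, while the ligand list lay above it.

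The genes nearest to each member were found by the root mean square (RMS) difference of levels over the 6 arrays, each gene centred on its own mean. The arrays are shared by all genes, so these values describe likeness of course only. For Dusp6 they were Pappa2 (0.24 log2 units), Mdga2 (0.36), Kcnt2 (0.36), Rbfox2 (0.39) and Sulf1 (0.42). Pappa2 had 6.90 and 6.87 at E18, 9.97 and 9.19 at P3, then 8.70 and 7.98 at P6, highest at P3 like Dusp6. Sulf1 encodes a sulfatase that edits heparan sulfate, the co-factor of FGF receptors. It had 5.51 and 5.44 at E18, 8.07 and 7.73 at P3, then 7.67 and 6.82 at P6.

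For Fgfr1 the nearest genes were Id3 (0.24) and Psph (0.26), and for Fgfr3 they were Fam210b (0.17) and Psph (0.21). Id3 encodes an inhibitor of differentiation factors, and Psph an enzyme of serine synthesis. For Fgfr2 they were Palmd (0.05) and Nrg1 (0.07), and for Etv5 Dcakd (0.14) and Etl4 (0.19). For Etv4 they were Acad11 (0.04) and Apobec1 (0.06). Spry1 was nearest to Cspg4 (0.05) and Slc25a25 (0.05), and Spry2 to Gdf9 (0.06) and Fgd3 (0.06).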

How the data were processed

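The deposited values are log2 expression levels of 45101 probe sets on 6 arrays, which the authors computed by RMA according to the labels (per the submitters' processing notes). Its version, and whether all arrays were run together, are not given in the sources used here. RMA pulls the arrays it is given to a common distribution, so levels are relative, and array number limits the precision. The deposited arrays still differed in spread. The SD of all probe sets of an array was 2.14 and 2.16 at E18, 2.03 and 1.85 at P3, then 2.05 and 2.10 at P6. Of these probe sets, 34945 had 1 gene symbol in the platform annotation, 932 had several and 9160 none. Each of 18193 genes took the probe set of highest mean, and the dimmest 25% of genes were left out.

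Stage means of all 6 arrays were fitted with limma 3.58.1 (R 4.3.3), with an intensity trend and 3 residual degrees of freedom, 2-sided. The fit was also run on 5 simulated sets in which each gene had the same spread on all 6 arrays. Those sets do not bear on the unequal spreads of the stages. A second fit took all 34945 probe sets. Alternatives changed the filter, scaling, probe set choice, variance model, covariates and arrays. The members and lists were chosen with earlier results of these data known. Named genes were all members and the nearest genes (5 for Dusp6, 2 for others). From the pathway lists came the 3 genes of smallest p per list in P3 minus E18 and the 4 over all lists in P6 minus P3. Dusp5, Ets2, Junb, Egr1 and single markers of cell types were named outside these rules.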

Additional observations from a re-analysis of the deposited data

How the results depend on the processing

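The falls of Fgfr1 and Fgfr3 from E18 to P3 and P6 kept their direction and call under all 18 alternatives. So did Fgfr2 at P6, and at P3 under all but the mean of its probe sets. Counts of calls depended on how the E18 arrays entered the fit, and the part of their close match was not tested. With these averaged, limma called 2452 genes at P3 and 2366 at P6 against E18, 1258 for the change after P3 against the change before it, 18 and 19 pathway genes, and 4 member probe sets at each stage. The fit then has 1 array at E18, which is assumed to vary like the others. When the hybridization controls were a covariate it called 2263, 2485 and 983 genes, 3 members at P3, 2 members for the unequal change, 19 pathway genes at P3, and 4 member probe sets at each stage. The cause was not tested. With the dimmest 50% of genes left out, so that fewer were tested, 21 pathway genes were called at P3. Array weights gave 1805 genes for the unequal change. Quantile normalization raised the share of higher calls at P3 to 50.4%, against 37.6%, and the median of all genes to 0.09, against -0.13.

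Leaving out each array in turn gave 2397 to 7871 genes at P3 minus E18, 2338 to 6161 at P6 minus E18, 0 to 3922 at P6 minus P3 and 1253 to 6429 for the unequal change. Members called were 4 to 6, 3 to 4, 0 to 2 and 2 to 4, pathway genes 18 to 41, 19 to 39 and 0 to 15, and member probe sets 4 to 9, 4 to 8 and 0 to 3. The high counts at P6 minus P3 came without P3 replicate 1. Direction turned in 4 uncalled differences when an array was left out. For P6 minus P3, Fgfr3 ran from -0.12 to 0.69, Spry2 from -0.55 to 0.37, and Etv4 from -0.23 to 0.0245. For P3 minus E18, Spry2 ran from -0.17 to 0.75, and it was called without P3 replicate 2.

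Samples share numbers between stages, but the numbers did not pair them. Deviations from stage means correlated at -0.201 for E18 with P3, 0.037 for E18 with P6 and -0.137 for P3 with P6. With a replicate block limma called 5201 genes at P3 and 4054 at P6 against E18, and 0 at P6 minus P3, and the block ended the call of Spry1 at P3 (adjusted p = 0.0822) and left 3 members, against 4, called for the unequal change.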
